A study of Gallus gallus with 4 samples.

Results

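The change from embryonic day 12 (E12) to embryonic day 14 (E14) in tibial cartilage that includes the articular surface was read from 2 of the 4 arrays of the series. They were chosen by their labels: the white leghorn chicken tissue called TC+AC, articular cartilage (AC) dissected with some transient cartilage (TC), at E12 (Hamburger-Hamilton stage 38) and at E14 (stage 40). The other 2 arrays held purely transient epiphyseal cartilage of the same bone at the same stages. They serve here for scaling, in choosing the probe set that stands for each gene, and for setting the changes side by side. All 4 groups were tissue pooled over many dissections, and each was 1 array. No group therefore had a replicate, no spread between embryos could be estimated, and every difference below is a value without a test. The proportion of articular to transient cartilage in each TC+AC pool was not measured, so a shift in it between stages and a change within the cells cannot be told apart. The comparison asks which genes differ between the stages in the tissue that holds the future joint surface.

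Cartilage is built by chondrocytes, which secrete a network of collagens II, IX and XI filled with aggrecan, the large proteoglycan that binds water, and tied together by adaptor proteins such as the matrilins and COMP. In a long bone of the embryo, transient chondrocytes enlarge, make collagen X and are replaced by bone. Articular chondrocytes at the bone ends stay cartilage for life and arise next to the joint interzone, a band marked by the growth factor gene GDF5 and the transcription factor gene ERG.

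Of the 7 chondrocyte markers examined, 7 lay above background on both TC+AC arrays, as did 7 of the 7 articular and joint markers that were found on the array, among them GDF5, ERG and BARX1. Of the 6 hypertrophic markers, COL10A1, PANX3 and SPP1 lay above background on both, MEF2C at E12 alone, and IHH and ALPL on neither. The 6 tendon and fibrous markers also lay above background on both, and so did 3 of 3 osteoblast, 3 of 4 muscle, 3 of 5 endothelial, 2 of 2 erythroid, 3 of 5 leukocyte and 2 of 3 nerve and glia markers that were found. The level above which a gene counted as detected was taken on each array from probe sets for virus genomes, and was 4.26 on the log2 scale at E12 and 4.62 at E14.

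The TC+AC E14 array stood apart from the others, and every change below rests on it. Its median intensity as deposited was 13.1, against 20.6 to 23.1 on the other 3 arrays. Its signal ratio of 3′ to 5′ control probe sets, which rises when RNA is degraded or labelling is short, was 7.48 for beta-actin (1.99 to 4.01 on the others) and 3.97 for EF1-alpha (1.45 to 1.64), but 1.59 for GAPDH (1.18 to 1.55). Genes above background numbered 8629 on it, against 9548 to 9840 on the others. Without scaling, the median change of all genes was -1.29 on the log2 scale. All changes are therefore given after quantile normalization and are relative to the bulk of genes. The part of RNA quality in any single change was not tested.

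Of 10104 genes measured (brightest probe set above background on at least 1 TC+AC array), 428 were at least 2-fold higher at E14 with every other measured probe set changing in the same direction (4.24%), and 477 were at least 2-fold lower (4.72%). Together these made 905 genes (8.96%), of which 640 were above background on both arrays. For another 120 higher and 145 lower genes, 1 array was below background and the fold is a lower bound. Only 223 of the 905 had more than 1 measured probe set. A further 193 genes were 2-fold apart on the brightest probe set while another probe set went the other way, and these were not called. The balance depends on the scaling: with linear scaling and the median of all genes set to 0, 789 genes were higher and 369 lower, so that 68.1% of calls were higher in place of 47.3%. At 4-fold or more, 19 genes were higher and 16 lower.

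Probe sets of the same gene agreed weakly in TC+AC. Across 2604 genes with 2 probe sets above background on both arrays, the changes of the 2 brightest correlated at r = 0.26 (Spearman rho = 0.25) and had the same sign in 58.6% of genes. In TC the same measure over 3415 genes was r = 0.58 with 68.6% of equal sign. Where the brightest probe set was at least 2-fold apart, the next agreed in sign in 145 of 215 genes in TC+AC (67.4%) and in 596 of 706 in TC (84.4%). Genes are not independent replicates, and the probe sets of a gene share the array. A single-probe-set change in TC+AC is therefore weak support by itself, and genes with several agreeing probe sets come first below.

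**Figure D1:**
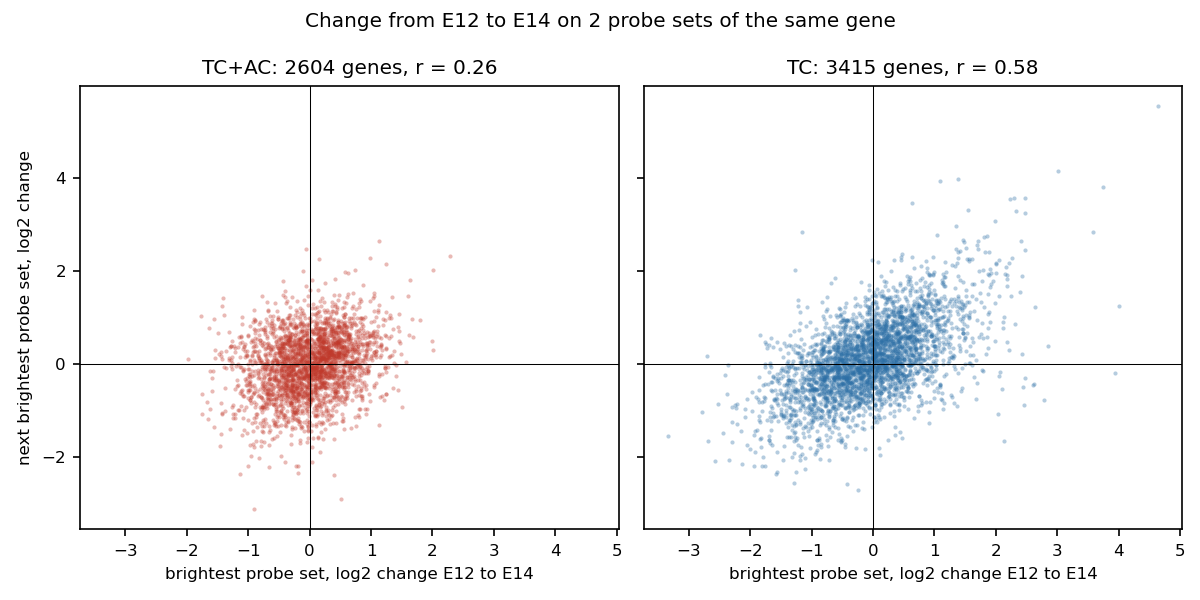
Log2 change from E12 to E14 on the brightest (horizontal axis) and next brightest (vertical axis) probe set of each gene, for TC+AC (left) and TC (right), with 1 point per gene above background on both arrays of that tissue. The TC+AC cloud is rounder (r = 0.26, 2604 genes) than the TC cloud (r = 0.58, 3415 genes).

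Requiring at least 2 measured probe sets, all at least 2-fold apart in the same direction, left 13 genes higher (0.312%) and 25 lower (0.6%) of 4169 genes with that many. With linear scaling and the all-gene median set to 0 these counts were 42 and 19. The highest was MATN3, which encodes matrilin-3, an adaptor protein of the cartilage matrix. Its log2 level was 7.40 at E12 and 9.69 at E14, a 4.90-fold difference, and its other probe set gave 4.57 and 6.90. The changes on the pair of probe sets were nearly equal, at 2.29 and 2.33.

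The gene next in rank, CATH1, encodes a cathelicidin, an antimicrobial peptide of avian granulocytes. It went from 7.70 to 9.71 (4.02-fold), and its other probe set from 6.53 to 8.55. RORA, a nuclear receptor gene, went from 5.81 to 7.45 (3.12-fold), with 4.35 and 6.15 on its other probe set. The changes on the pair of probe sets were 2.01 and 2.02 for CATH1 and 1.64 and 1.80 for RORA.

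COL9A3, 1 of the 3 chains of collagen IX, went from 10.55 to 11.60 (2.07-fold), with changes of 1.52 and at least 1.32 on its other measured probe sets. BLB1, a class II major histocompatibility beta chain, went from 9.73 to 10.84 (2.16-fold), with 1.12 and 1.40 on its others. Class II beta genes are close paralogs, so these probe sets may read more than 1 of them. HINTW, a gene of the female-specific W chromosome, went from 10.76 to 11.88 (2.18-fold), with 2.64 on its other probe set.

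The remaining genes of this kind that were higher were FCRL4, CYSRT1, HSBP1L1, HTT, TBXAS1, MYBL1 and APPL1. Their changes on the brightest probe set ran from 1.04 to 1.80 on the log2 scale. TBXAS1, the thromboxane synthase gene, went from 4.46 to 6.26, and APPL1, which encodes an endosomal adaptor, from 5.37 to 6.41. The brightest probe set of HTT, the huntingtin gene, was below background at E12.

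Among the lower genes, PCID2, which takes part in mRNA export, went from 7.12 to 4.95 (4.50-fold lower), with at least -1.25 on its other probe set. FSTL1, a secreted follistatin-like glycoprotein that modulates BMP signalling, went from 8.92 to 7.05 (3.64-fold lower), and its other probe set also changed by at least -1.25. SPI1, the myeloid transcription factor PU.1, was 6.69 at E12 and below background at E14, at least 4.20-fold lower. In each of these 3 genes the dimmer probe set was below background at E14, so its change is a bound.

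HIRA, a histone chaperone gene, went from 6.90 to 5.24 and COIL, which encodes the coilin of Cajal bodies, from 6.67 to 5.42. HNRNPH3, an RNA-binding protein gene, went from 8.21 to 6.96, and its other probe sets changed by -1.16 and -1.84. RRM1, the large subunit of ribonucleotide reductase, which supplies deoxynucleotides for DNA synthesis, went from 8.38 to 7.28 and by -1.52 on its other probe set. All 3 probe sets of HNRNPH3 and both measured probe sets of HIRA, COIL and RRM1 were thus lower at E14.

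The others named by rank were SZRD1, LAMTOR3, FAM107B, ELMO2, OSBPL11, NKAIN4, ACBD6 and GNG12, with changes of -1.08 to -1.82 on the brightest probe set. LAMTOR3, a subunit of the Ragulator complex on lysosomes, went from 8.90 to 7.48, and ELMO2, which takes part in Rac activation, from 9.32 to 8.05. Of the 13 higher genes 11 also had a change above 0 in TC on the brightest probe set. The other probe sets of CATH1 and APPL1 went the other way in TC, by -0.80 and at least -1.18. Of the 13, 6 were called higher in TC and 1 lower. Of the 25 lower genes 16 had a change below 0 in TC, 7 were called lower there and 2 higher. Over all genes measured in TC, 6.7% were called higher and 10.7% lower.

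**Figure D2:**
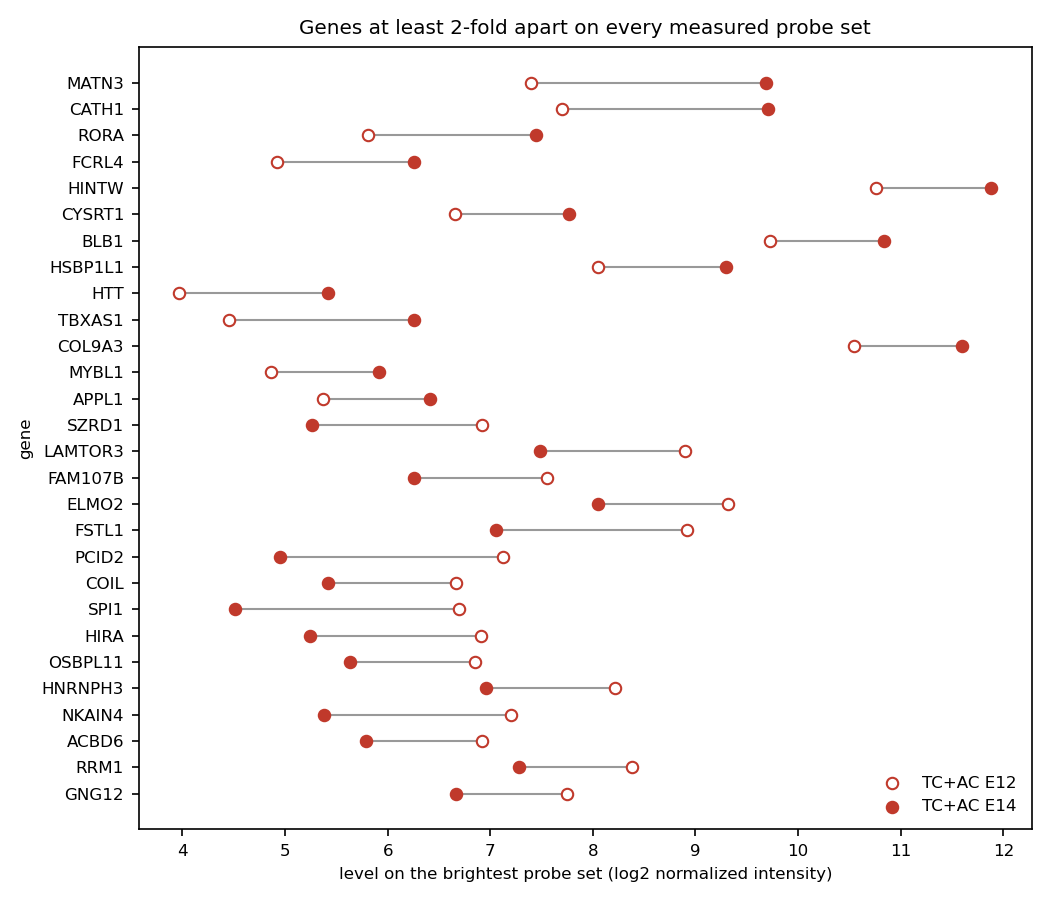
Log2 normalized level of the 28 named genes with at least 2 measured probe sets, all at least 2-fold apart in the same direction, on the TC+AC array at E12 (open circles) and E14 (filled circles), brightest probe set. MATN3 has the widest gap among the 13 genes that were higher (7.40 to 9.69) and PCID2 the widest among the lower genes shown that lie above background at both stages (7.12 to 4.95); HTT at E12 and SPI1 at E14 lie below background.

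Larger changes were seen in genes with 1 measured probe set. C17orf67 went from 7.50 to 11.14, a 12.4-fold difference, and was also higher in TC (2.55-fold). PDPN, which encodes the membrane glycoprotein podoplanin, had a change of 2.79 to a level of 9.19 at E14 (6.91-fold). EPYC, which encodes the cartilage proteoglycan epiphycan, went from 8.22 to 10.45 (4.70-fold), and in TC from 9.81 to 11.92 (4.30-fold). For these 3 genes both tissues were higher at E14.

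PDK4, a kinase gene that limits the entry of pyruvate into the citric acid cycle, went from 5.62 to 7.82 in TC+AC (4.62-fold), while its change in TC was 0.13. Among lower genes, RAB10L, a RAB10-like gene by its name, went from 6.90 to 4.70 (4.60-fold lower). ALDH7A1, an aldehyde dehydrogenase gene, went from 10.06 to 7.89 (4.48-fold lower), against 9.84 and 9.61 in TC. MCUB, a subunit of the mitochondrial calcium uniporter, went from 7.91 to 5.76, TUBAL3, an alpha-tubulin-like gene, from 9.28 to 7.27, the helicase gene DHX33 from 6.99 to 5.01 and the nucleolar gene NOL7 from 8.34 to 6.37. MCUB, TUBAL3 and DHX33 were also called lower in TC, while NOL7 was not. Each of these rests on 1 probe set.

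Cartilage matrix genes had the highest median change of the 33 gene lists examined. Of 19 measured, 9 were called higher (47.4%) and 0 lower, and all 19 had a change above 0. The median change was 1.03 on the log2 scale, where the median over all genes was 0.00. Of the 17 other measured probe sets of these genes, 16 changed in the same direction as the brightest (94.1%, against 57.0% over all genes). From the values as measured, without background in place of dim ones, the group's median lay 1.09 above that of all genes (-0.06). With other scalings, background limits or probe sets, this gap was 1.06 to 1.30. Of all measured genes, 4.24% were called higher and 4.72% lower in TC+AC, and 6.7% and 10.7% in TC. In TC+AC, 4628 of the 10104 measured genes had a change above 0 and 4990 had a change below 0. The counts of every list, here and below, are to be read beside these values.

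Aggrecan, ACAN, went from 7.85 to 9.32 (2.78-fold). CHADL, a leucine-rich protein related to chondroadherin, went from 6.08 to 8.02 (3.82-fold), and SNORC, a chondrocyte membrane proteoglycan, from 7.13 to 8.97 (3.60-fold). Together with MATN3 and EPYC these were the highest of the group, and ACAN, CHADL, SNORC and EPYC had 1 measured probe set each.

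Among the collagens, COL27A1, a fibrillar collagen of cartilage, went from 8.77 to 9.85 (2.12-fold), and COL9A2 from below background to 5.35 (at least 2.14-fold). COMP, the cartilage oligomeric matrix protein, went from 6.83 to 7.87 (2.05-fold). The other measured probe set changed by only 0.57 for COMP and 0.47 for COL27A1, with background in place of any dim value. COL2A1, the main collagen, went from 11.51 to 12.42, with 3 of 3 other probe sets higher, and COL11A1 from 11.77 to 12.56, with 4 of 4 higher. COL2A1 and COL9A1, both at 0.91, lay just short of 2-fold. MATN1 went from 8.85 to 10.21 but its other probe set went the other way.

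The same genes differed more in TC, where 15 of 20 measured were called higher and the median change was 2.15. ACAN differed 15.4-fold there, with another probe set in disagreement, MATN3 13.5-fold and COMP 24.8-fold. The changes of EPYC were 2.23 in TC+AC and 2.10 in TC, those of COL2A1 0.91 and 1.04, and those of COL9A1 0.91 and 1.10. Whether the tissues differ in these changes cannot be tested with 1 array each. In pooled tissue, fewer or more cells of a type and less or more RNA per cell cannot be told apart.

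**Figure D3:**
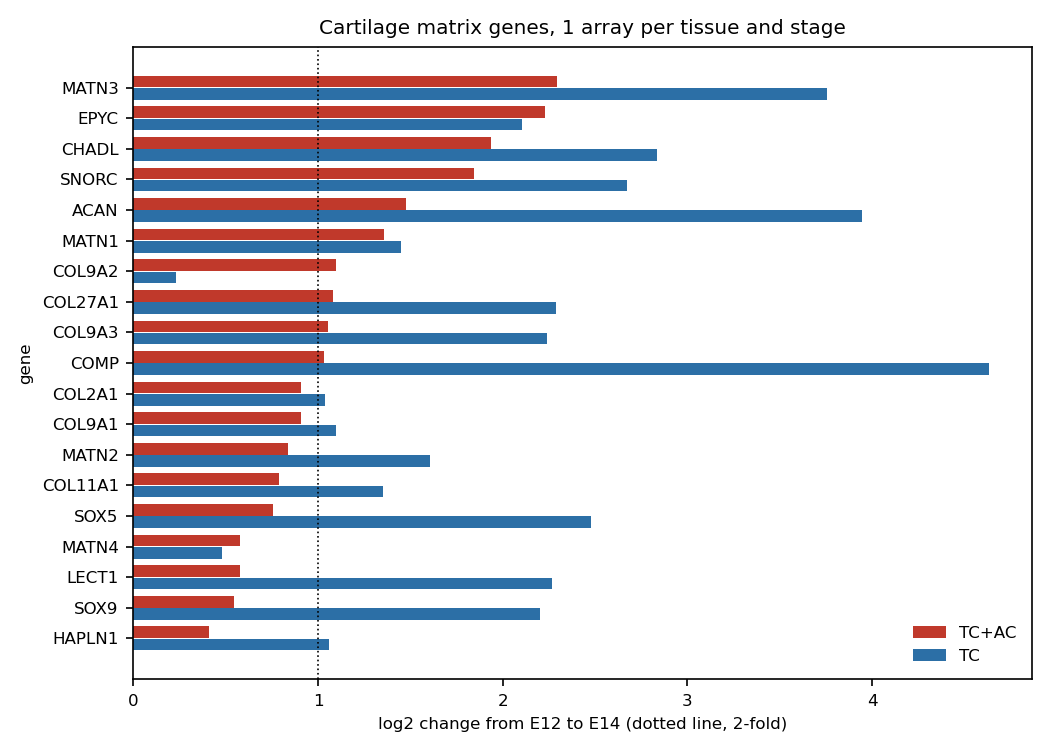
Log2 change from E12 to E14 of the 19 cartilage matrix genes measured in TC+AC (red) and in TC (blue), 1 array per tissue and stage, brightest probe set; the dotted line marks 2-fold. All 19 red bars lie above 0, with the highest at 2.29 (MATN3), and most blue bars are longer, up to 4.63 (COMP).

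The sulfated side chains of these proteoglycans are made by a separate set of enzymes. None of the 31 measured genes of glycosaminoglycan synthesis and sulfation was called in either direction in TC+AC (median change 0.16), while 9 of 30 were called higher in TC. CSGALNACT1, which starts chondroitin sulfate chains, was 7.13 and 6.90 in TC+AC and 5.52 and 9.11 in TC. Its changes were thus -0.23 and 3.59, and its other probe set gave 0.61 and 2.83. UGDH, which makes the glucuronic acid precursor, was 8.51 at E12 and 7.63 at E14 in TC+AC.

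Small leucine-rich proteoglycans, which bind collagen fibrils, had 2 of 8 called higher (25%, against 4.24% of all genes) and 0 lower. Besides EPYC this was fibromodulin, FMOD, which went from 9.35 to 10.95 (3.04-fold). Basement membrane genes had 2 of 15 higher (13.3%) and 0 lower. COL15A1 went from 5.29 to 7.31 (4.04-fold) and COL4A1 from 6.29 to 7.44 (2.22-fold), each with 2 of 2 other probe sets in the same direction. The weakest probe set of COL15A1 changed by only 0.31, with background in place of any dim value.

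Of 24 joint and articular genes measured, 1 was called higher and 0 lower, and the median change was -0.13. The share called higher (4.17%) was near the 4.24% over all genes, so the count says nothing particular about the list. The called gene was CLU, which encodes the secreted chaperone clusterin and went from 8.37 to 10.03 (3.15-fold) on 1 probe set. GDF5 was 8.48 and 8.75, ERG 6.49 and 6.48, and BARX1, a homeobox gene of the joint region, 8.66 and 8.50. In TC 6 of 23 joint and articular genes were called higher and 5 lower, where 6.7% and 10.7% of all measured genes were called.

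The BMP antagonist gene NOG, which is needed for joints to form, was 5.26 and 6.24, just short of 2-fold. HAS2, which makes hyaluronan, was 7.95 and 7.12 in TC+AC and 5.68 and 8.43 in TC. SFRP2, a secreted WNT modulator, was 9.35 and 9.10 in TC+AC, a difference of -0.25, against -3.04 in TC.

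Hypertrophic cartilage genes had 1 of 18 called higher and 1 lower, with a median change of -0.03 (0.52 in TC). COL10A1, the collagen of hypertrophic chondrocytes, went from 7.24 to 8.31 (2.11-fold), close to its 2.05-fold difference in TC. SPP1, which encodes osteopontin, went from 6.44 to 5.04 (2.64-fold lower). MMP13, the collagenase of hypertrophic cartilage, was 8.26 and 8.21, and RUNX2, the transcription factor of hypertrophy and bone, 7.01 and 7.19. Of 11 osteoblast and mineral matrix genes, SPP1 was the 1 called lower and none was higher, with a median of -0.37. In TC 7 of 14 were called lower, where 10.7% of all measured genes were.

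BMP signalling had 5 of 31 genes called higher (16.1%, against 4.24% of all genes) and 2 lower, with a median of 0.27. Of the 31, 17 had a change above 0 and 13 had a change below 0. The genes called higher were 4 that BMP signals are known to act on or through and 1 antagonist. MSX2, a homeobox gene, went from 5.44 to 7.10 (3.18-fold), and ID4, an inhibitor of helix-loop-helix factors, from 8.61 to 10.04 (2.70-fold). The inhibitory SMAD genes SMAD7 and SMAD6 were 2.27-fold and 2.12-fold higher, from 6.02 and 7.63 at E12. The antagonist gene CHRDL1 went from 5.45 to 6.47.

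Except for CHRDL1, these were not called higher in TC, where SMAD7 was called lower (-1.26) and MSX2, ID4 and SMAD6 had changes of -0.46, 0.42 and -0.37. The lower genes in TC+AC were FSTL1 and follistatin, FST, which binds activins and BMPs and went from 6.21 to 5.14. SMAD7 and FST each had a second probe set in the same direction, but it changed by only 0.30 and -0.06, with background in place of any dim value. MSX2, ID4, SMAD6 and CHRDL1 had 1 measured probe set.

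WNT signalling had 1 of 30 called higher and 2 lower. The secreted inhibitor WIF1 went from 5.70 to 6.73, the transcription factor LEF1 from 6.12 to 4.93, and the coreceptor LRP5 from 6.28 to below background (at least 3.16-fold lower). TGF-beta and FGF signalling had 2 of 25 higher and 2 lower. FGF2, a growth factor gene, went from 6.03 to 7.25 and the FGF feedback inhibitor SPRY4 from 4.31 to 5.52, while the FGF-responsive transcription factor gene ETV4 went from 7.26 to 6.20 and the repressor gene TGIF1 from 5.75 to below background.

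Of 13 Notch genes, DLK1, which encodes a membrane protein of immature mesenchymal cells, was the 1 called lower, from 6.88 to 4.92 (3.91-fold), and in TC it was 6.41-fold lower. No gene was called among 12 hedgehog and PTHrP and 11 IGF signalling genes. Of 20 matrix protease genes and their inhibitors, MMP16, a membrane-bound metalloproteinase, was the 1 called, from 7.59 to 8.73, with 2 of 2 other probe sets higher. The weakest of its probe sets changed by only 0.39, with background in place of any dim value.

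Genes of protein folding in the endoplasmic reticulum and of collagen processing had 1 of 31 higher (3.23%) and 3 lower (9.68%, against 4.72% of all genes). The chaperone genes HSPA5 and DNAJB11 went from 10.02 to 8.91 and from 6.88 to 5.06, and PDIA6, a disulfide isomerase gene, from 8.41 to 7.37. In TC, HSPA5 and PDIA6 were called higher, by 1.56 and 1.32. PLOD2, which hydroxylates collagen lysines, was higher in both tissues, from 7.78 to 8.84 in TC+AC. HSPA5, PDIA6 and DNAJB11 rest on 1 probe set each.

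Cell cycle and DNA replication genes had 0 of 42 called higher and 3 lower, with a median of -0.29. RRM1 is given above. The checkpoint kinase gene CHEK1 went from 6.57 to 5.30, with 2 of 2 other probe sets lower, and RFC4, a subunit of the clamp loader, from 8.77 to 7.64. Among 27 histone and chromatin genes, 2 were lower, the deacetylase gene HDAC1 (8.29 to 7.15, 2 of 2 other probe sets lower) and the maintenance methyltransferase gene DNMT1 (at least 2.26-fold). The median of the chromatin list was -0.31.

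Cholesterol and fatty acid synthesis had 3 of 27 higher (11.1%, against 4.24% of all genes) and 0 lower. Of the 27, 20 had a change above 0 (median 0.25). HMGCS1, an early enzyme of the mevalonate pathway, went from 6.44 to 7.99, FDFT1, the squalene synthase, from 6.99 to 8.19, and MSMO1, a sterol oxidase, from 8.13 to 9.22. Glycolysis and hypoxia genes had 3 of 30 higher (10%) and 0 lower, around a median of -0.06. DDIT4, a stress-induced inhibitor of mTOR, went from 4.60 to 5.95, the lactate transporter gene SLC16A3 from 5.80 to 6.90 and the phosphofructokinase gene PFKM from 4.44 to 5.49. HMGCS1, FDFT1, MSMO1, DDIT4 and SLC16A3 had 1 measured probe set each.

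Of 28 proteasome genes 24 had a change below 0 (median -0.33). PSMC2 and PSMA3 were called lower, from 9.95 to 8.59 and from 9.59 to 8.36, and PSMB5 was called higher, from 5.04 to 6.39, each on 1 probe set. No gene was called among 42 genes of the respiratory chain and ATP synthase, 62 of ribosomal proteins and 41 of splicing. Their medians lay at -0.13, -0.06 and -0.21.

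Of 25 skeletal muscle genes 3 were lower (12%, against 4.72% of all genes) and 0 higher. The median change was -0.24 with background in place of dim values, and -0.59 from the values as measured, with 9 of the 25 genes below background at E14. ACTC1 went from 7.43 to 6.24, TNNC1 from 7.53 to 6.22, and TNNT2 from 6.20 to below background. Changes were below 0 in 16 of the 25 and above 0 in 6. Among the latter was the muscle marker ACTA1, from 7.69 to 8.44, and MYH1B was nearly level at 7.09 and 7.05. The summed intensity of the muscle list was 2908 at E12 and 2517 at E14 in TC+AC, and 3524 and 1224 in TC. There 17 of 23 muscle genes were called lower, against 10.7% of all genes. The muscle marker MYLPF was below background on both TC+AC arrays.

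No gene was called among 25 fibrous tissue and tendon genes or 17 erythroid genes. Their summed intensities were 47500 and 49722 for the fibrous list and 20369 and 19869 for the erythroid list. COL1A1 and COL1A2, the chains of collagen I, were 13.31 and 13.26 and 12.78 and 12.69. Scleraxis, SCX, a transcription factor of tendons, was 8.23 and 8.96.

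Of 19 endothelial genes 2 were lower (10.5%, against 4.72% of all genes) and 0 higher. These were the angiopoietin receptor gene TEK (5.98 to below background) and its ligand gene ANGPT2 (6.34 to 5.13). The median change of the endothelial list was 0.05, with 10 genes above 0 and 9 below. Its summed intensity was 1621 at E12 and 1647 at E14. Of 21 leukocyte genes LY86 was higher, from 7.96 to 9.09, and SPI1 and IRF8 lower (9.52%), IRF8 from 5.69 to 4.67. The median of the leukocyte list was -0.07, with 9 genes above 0 and 11 below. Among 11 nerve and glia genes, S100B went from 4.76 to 6.82 (4.17-fold) and SOX10 from 4.83 to 5.86, and FABP7 from 9.59 to 8.34. S100B is also made by chondrocytes. The part of other tissues in the cartilage changes was not tested.

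**Figure D4:**
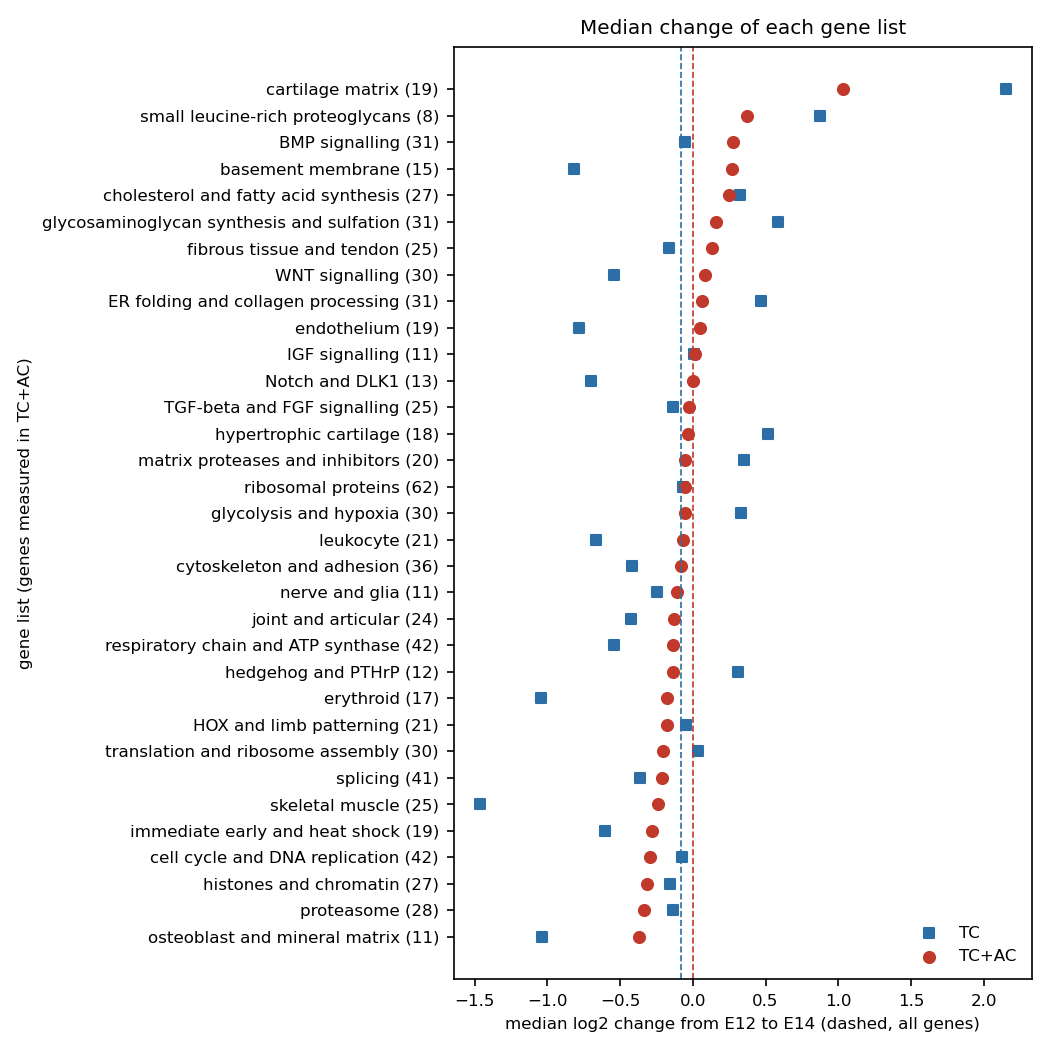
Median log2 change from E12 to E14 of 33 gene lists in TC+AC (red circles) and TC (blue squares), with the number of genes measured in TC+AC in brackets; dashed lines mark the median of all measured genes in each tissue. Cartilage matrix lies highest in both tissues (1.03 and 2.15), and the TC+AC medians of the other 32 lists lie between -0.37 and 0.38.

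Set beside TC, the changes in TC+AC were narrower and correlated little with those in TC. Probe sets of the same gene within TC+AC themselves correlated only at r = 0.26. The part of measurement noise in the low correlation between the tissues was not tested. Over 7607 genes above background on all 4 arrays the log2 changes had an SD of 0.61 in TC+AC and 0.82 in TC, and correlated at r = 0.08 (Spearman rho = 0.04), as a description across genes on arrays scaled together. Of the 385 genes called higher in TC+AC and measured in both tissues, 55 were called higher in TC (14.3%, or 8.49% of the 648 called there) and 36 lower. Of 475 called lower, 101 were called lower in TC (21.3%, or 9.23% of 1094) and 19 higher. In TC, 706 of 10531 measured genes were called higher (6.7%) and 1127 lower (10.7%), together 17.4%, against the 8.96% in TC+AC. MATN3, EPYC, COL15A1, PDPN, CHADL and SNORC were among the genes called higher in both, and TUBAL3, DLK1 and NKAIN4 among those called lower in both.

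The widest gap with the lower change in TC+AC was that of CSGALNACT1, -3.82 on the log2 scale, whose levels are given above, as are those of HAS2 (-3.58). UGGT2 (-3.75), COMP (-3.60), PCID2 (-3.42) and FOXP2 (-3.35) made up the 6 named by this gap. COMP was 6.83 and 7.87 in TC+AC against 6.75 and 11.39 in TC. FOXP2, a forkhead transcription factor gene, went from 6.76 to 4.83 in TC+AC and from 5.55 to 6.97 in TC, on 1 probe set. PCID2 went from 7.12 to 4.95 in TC+AC and from 6.87 to 8.12 in TC. UGGT2, a glucosyltransferase of glycoprotein folding, was -1.50 in TC+AC and 2.24 in TC, but its other probe set was higher in TC+AC and the gene was not called.

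In the other direction, C12orf10 went from 7.76 to 9.21 in TC+AC and from 8.04 to 5.24 in TC. RBM14, an RNA-binding protein gene, went from 8.01 to 9.16 and from 8.33 to 6.12. The other measured probe set of RBM14 changed by only 0.36 in TC+AC and by -1.29 in TC. Those of C12orf10 changed by 0.45 and 1.08 in TC+AC and by -0.88 and -1.03 in TC. EXOSC6, a subunit of the RNA exosome, had changes of 2.20 and -1.19, and KRT5, a keratin of basal epithelium, from 5.07 to 6.74 and from 6.30 to 4.63. CNTNAP1 and LOC424577 were 0.69 and 0.56 in TC+AC, short of 2-fold, and -2.78 and -3.02 in TC. For these genes the gap between the tissues was 3.34 to 4.24 on the log2 scale, and most of it lay in the TC arrays for C12orf10, RBM14, CNTNAP1 and LOC424577.

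**Figure D5:**
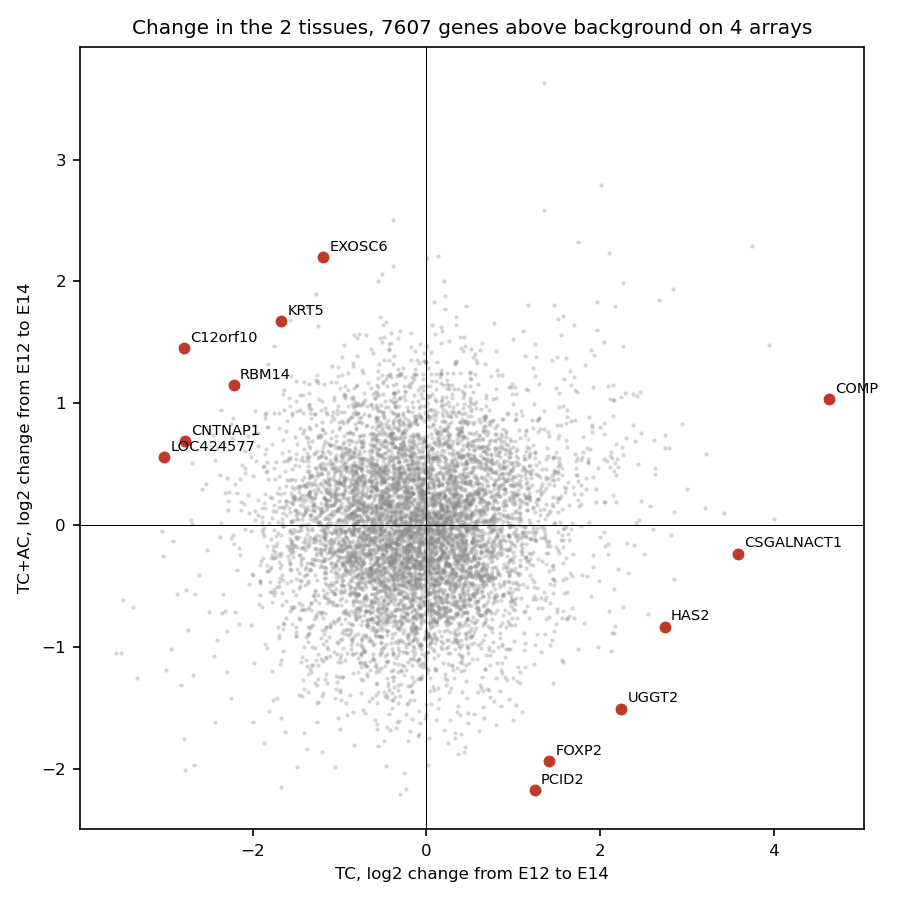
Log2 change from E12 to E14 in TC (horizontal axis) and TC+AC (vertical axis) for 7607 genes above background on 4 arrays, 1 grey point per gene; red points are the 12 named genes with the widest gap between the changes. The cloud has no visible slope (r = 0.08) and is wider along the TC axis, with COMP at 4.63 in TC and 1.03 in TC+AC.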

How the data were processed

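The deposited table held linear intensities for 38535 probe sets of an Affymetrix chicken array, per the file headers and values. The sources used here do not state how the authors summarised, background-corrected or scaled these deposited intensities.

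The 96 control probe sets were left out and 38439 were quantile normalized over the 4 arrays (R 4.3.3, limma 3.58.1), floored at the 20th percentile of all values (4.275) and taken to log2. Tables were made with Python 3.11.15. Background was taken per array as percentile 95 of the 541 virus probe sets. Genes were named from the 27178 probe sets with 1 symbol in the platform annotation (177 had several, 11180 none); the probe set with the highest mean over the 4 arrays stood for each of 13051 genes. A gene was called at 2-fold or more, with background in place of a dim value, if every other probe set above background on either TC+AC array had the same sign. With 1 array a side there was no test; the number of arrays limits the precision.

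Named genes were the 15 highest and 15 lowest with at least 2 probe sets all past 2-fold, ranked by the weakest probe set; the 6 highest and lowest with 1 probe set; up to 4 called members a direction of each list, with members set beside them; and the 6 with the widest gap to TC in each direction. Genes known only by a locus identifier were not all named. The comparison, the members and the 33 lists were chosen with earlier results of these data known. Of 1054 list entries, 880 were found by symbol, 25 by synonym (some under a related gene's symbol) and 149 not under their names. Alternatives were other scalings, background limits, folds and probe set rules. Promoter and position features were not analysed here.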

Additional observations from a re-analysis of the deposited data

Results flagged for a closer look

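Among genes measured in both tissues, 36 were called higher in TC+AC and lower in TC, and 19 the reverse. These were 9.35% of the 385 called higher and 4% of the 475 called lower in TC+AC. Over all genes measured in TC, 10.7% were called lower and 6.7% higher, so opposite calls were not above the all-gene shares. SMAD7, HSPA5, PDIA6, KRT13 and CLDN1, named in other paragraphs, are among the genes called in opposite directions. Of the 51 genes named by rank or by the gap to TC, 8 were called in opposite directions. C12orf10, EXOSC6, RBM14, KRT5, PCID2 and FOXP2 among them were chosen for a wide gap between the tissues. That choice favours opposite calls, so the count of 8 says nothing about genes at large. The difference was not tested, since each tissue and stage is 1 array. Log2 changes from E12 to E14 in TC+AC were 1.11 for BLB1, 1.45 for C12orf10, 2.20 for EXOSC6, 1.15 for RBM14 and 1.67 for KRT5, each lower at E14 in TC. They were -2.17 for PCID2, -1.25 for HNRNPH3 and -1.94 for FOXP2, each higher at E14 in TC. BLB1, PCID2 and HNRNPH3 had at least 2 probe sets past 2-fold in TC+AC, while EXOSC6 and FOXP2 rest on 1. BLB1 and HNRNPH3 had 3 probe sets each past 2-fold in TC+AC. In TC the brightest probe set of HNRNPH3 was barely past 2-fold, and its other probe sets were higher by only 0.19 and 0.80. The opposite call of HNRNPH3 thus rests on a narrow margin in TC.

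Chicken transcript probe sets without a gene symbol took no part in the gene counts. They number 10350; the rest of the 11180 without a symbol are control, virus, reporter and similar probe sets. Of the 10350, 5039 were above background on either TC+AC array, and 487 were at least 2-fold higher at E14 (9.66%) and 158 lower (3.14%). Named genes had 4.24% higher and 4.72% lower under a rule that also asks other probe sets to agree, so the shares are not built alike. Among those above background on both arrays, the changes ran from -2.13 to 5.28 on the log2 scale.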

How the results depend on the processing

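Counts of calls moved with the scaling. As deposited, 5 genes were called higher and 5817 lower (all-gene median -1.29), scaled on hybridization controls 15 and 4937 (-1.14), and centred on array medians 160 and 1511 (-0.49), with 0, 2 and 4 cartilage matrix genes called higher. With that all-gene median taken off, alternatives added after seeing the data, 789, 791 and 788 genes were higher and 369 lower, so the share of calls that were higher went from 47.3% to between 68.1% and 68.2%, and genes with several probe sets past 2-fold from 13 higher and 25 lower to 42 and 19. Of the 428 higher and 477 lower genes, 394 and 308 were shared with the deposited values treated so. Quantile normalization over the TC+AC arrays and cyclic loess gave 415 and 391 higher and 461 and 427 lower. A background at the 99th percentile gave 297 and 277, no background filter 850 and 1073 (7 of 23 cartilage matrix genes higher and 2 lower), 1.5-fold 1305 and 1390 (14 cartilage matrix genes), 4-fold 19 and 16 (2), and at least 2 probe sets past the fold 13 and 25 (2). The folds and the probe set rule move counts by their construction; for the scalings the cause was not tested. For the 51 genes named by rank or by the gap to TC, 502 of 504 values relative to all genes stayed within 0.5 (log2) and none was reversed. LAMTOR3 (-2.91) and COIL moved without probe sets that can match several transcripts. Other genes named in the text were not followed through the alternatives 1 by 1. Of 330 list medians relative to all genes, 323 stayed within 0.5 and none was reversed. The other 7 were those of ribosomal proteins, 0.00 above all genes in the main setting and up to 0.65. The size of that list's difference from all genes is therefore not settled. No paired analysis was possible because each group is 1 array. No replicate could be left out.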

Other observations

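The genes below were grouped after their values were seen, so their counts describe these arrays only. Genes of heterophils, the avian granulocytes, and innate defence had 6 of 9 measured called higher in TC+AC at E14 and 0 lower (median 1.23). In TC 1 of 12 was called higher. Over all genes the shares called higher were 4.24% in TC+AC and 6.7% in TC. Besides CATH1, AvBD5 went from 5.87 to 7.68, AvBD7 from 7.73 to 9.27, AvBD8 from 4.27 to 5.61 and AvBD6 from 5.12 to 6.29; these encode beta-defensins, antimicrobial peptides. S100A12, a calcium-binding protein gene of granulocytes, went from 5.35 to 6.58. These 4 defensin genes and S100A12 had 1 measured probe set each, which is weak support in TC+AC. AvBD8 at E12 lay barely above the background of 4.26. The pan-leukocyte gene PTPRC gave no measured change, as it was 4.26 at E12, where background was also 4.26, and below background at E14. SPI1 was lower, while the leukocyte markers CD74, CSF1R and CTSS had changes of -0.07, -0.12 and 0.04.

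Epithelial keratin and junction genes had 4 of 13 called higher (30.8%, against 4.24% of all genes) and 1 lower (7.69%, against 4.72%). KRT5 went from 5.07 to 6.74, KRT13 from 5.97 to 7.30 and the tight junction gene CLDN1 changed by 1.79, and DSG2, a desmosomal cadherin gene, was at least 2.51-fold higher. KRT7 was at least 2.69-fold lower, and KRT14 had a change of -0.31. In TC 0 of 12 were called higher and 6 lower, against 6.7% and 10.7% of all genes.

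Of 11 measured genes annotated to the W chromosome in the RefSeq table, HINTW, LOC430910 and LOC107049459 were called higher in TC+AC at E14, by 1.12, 2.33 and 1.49 on the log2 scale, and none lower. Over all genes 4.24% were called higher in TC+AC and 6.7% in TC. HNRNPKL and UBE2R2L had 0.94 and 0.74, short of 2-fold, with a second probe set of UBE2R2L in the other direction. MBD2 had 0.34, LOC425347 -0.19, NEDD4L -0.54 and UBAP2L2 a bound of -0.26, and LOC107055438 and LOC431003 gave no change beyond background. In TC 5 of 14 measured were called higher and 0 lower: the 3 named first, HNRNPKL and UBE2R2L. Female birds alone carry a W chromosome, and the sources used here do not give the sexes of the pooled embryos. The sex makeup of the pools and the stage cannot be told apart for these genes.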
